A study of Mus musculus with 4 samples.

Results

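The genes described here encode the enzymes and transporters that take glucose to lactate or carry pyruvate into mitochondria, measured in whole lenses of newborn mice with and without Hsf4. Members were the genes of a list of 30 for which the array's annotation gave a probe set that names the gene alone, and the brightest such probe set stood for each gene. This gave 27 genes of the 18193 that could be named in this way, with 61 probe sets in all. Gapdh was named alone only by 3 control probe sets, which are described but not tested. Expression of Gpi1 and Eno1 was not analysed here, and they enter only the promoter counts.

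The study compared 2 wild-type with 2 HSF4 knockout lens samples on Affymetrix arrays, to find the lens RNAs that change with loss of heat shock transcription factor 4, a regulator of lens genes. Per the labels, all 4 samples came from males of strain 129S3 at postnatal day 0.5, and arrays are numbered 1 and 2 in each group. The labels give neither the making of the allele nor whether a sample was 1 animal or a pool. The p-values therefore cover the spread of these arrays alone, part of which may be technical. Number is the labels' word only, but it moved with several readouts. Deposited median intensities were 21.4 and 18.5 on the number 1 arrays of wild type and knockout, and 10.5 and 6.58 on the number 2 arrays. Xist, an RNA of the inactive X chromosome, measured 605 and 260 on the number 1 arrays and 58.0 and 9.01 on the number 2 arrays, although all samples are labelled male. The Y-linked Eif2s3y was present on all arrays, at 60.4 and 101 on the number 1 arrays and 208 and 161 on the number 2 arrays. For 18S ribosomal RNA, the 5' control probe set read 1.52 and 14.3 on the number 1 arrays. Among the number 2 arrays it was similar in both groups, at 6898 and 7309. The 3' and middle sets were not, with 349 and 432 for wild type but 3228 and 3636 for knockout. Their number 1 values were 12.8 and 14.3 for wild type, and 10.6 and 16.7 for knockout. The part of the 18S signal in the values below was not tested. Of the 14 lens markers tested, the crystallin Cryaa measured 8512 to 9184 and the fibre membrane protein Mip 3670 to 4896 over the 4 arrays. Quantile normalization gives the brightest probe sets nearly the same values on every array, so the narrow range of Cryaa says little. Among other lens markers, the filament gene Bfsp1 measured 5220 and 3785 in wild type and 2186 and 2060 in knockout. Bfsp2 measured 180 and 268 in wild type and 60.1 and 2907 in knockout, so the knockout arrays held both its lowest and its highest value. The probe set of Hsf4 read 505 and 138 in wild type and 1212 and 413 in knockout. Where it lies relative to the deleted part is not given, so it does not check the labels, and directions below refer to the arrays as labelled.

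Glycolysis splits glucose into pyruvate through a chain of cytosolic enzymes, and lactate dehydrogenase turns pyruvate into lactate so that the chain can go on without oxygen. Alternatively, the pyruvate dehydrogenase complex commits pyruvate to the mitochondrial cycle, unless pyruvate dehydrogenase kinases switch it off. The lens has no blood supply of its own in adult life, and its mature fibre cells lose their mitochondria, so it is known for living largely on anaerobic glycolysis. Several steps have isoforms with different tissue preferences, such as the muscle forms of phosphofructokinase, phosphoglycerate mutase and enolase and the neuronal form of enolase.

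In the fit of the 2 groups without a term for the array number, none of the 27 genes was called different between knockout and wild type. Values are intensities after quantile normalization. A change is the knockout mean less the wild-type mean of log2(intensity + 16), with its standard error (SE). In limma with Benjamini-Hochberg adjustment over all 11595 genes tested, 0 of the 27 had an adjusted p under 0.05, and all had an adjusted p of 1. Across all genes 4 were called, or 0.0345%. At an unadjusted p under 0.05 there was 1 of the 27, Pdhb, against 2.35% of all genes. Without the intensity trend in the variance model limma also called 0. The result depended on the model, because limma with the array number as a block called Ldha (limma adjusted p = 0.0287) and Pdhb (limma adjusted p = 0.0121). The labels do not say what the number marks, and the closing section gives the count over all genes for that fit. Changes ran from -0.84 for Slc16a3 to 0.75 for Pdhb, with a median of -0.12 beside -0.0097 for all genes tested. Lower values were fitted for 23 of the 27, against 51.4% of all genes. Within the array numbers 11 of the 27 were lower in both, against 27.5% of all genes, and 15 changed sign between them. Groups did not overlap for 4 lower genes, or 14.8% of the 27, and for 14.3% of all genes. They did not overlap for 1 higher gene, or 3.70%, against 12.7% of all genes. The share of genes lower without overlap is thus close to that of all genes, unlike the share with a lower fitted value. The gap between the 2 arrays of a group had a median size of 0.47 in wild type and 0.22 in knockout over the 27 genes, beside 0.16 for the change between group means, which averages 2 arrays a group. For 3 genes, Pfkm, Ldhb and Pdhb, the change exceeded the gap between arrays in both groups. This was not counted over all genes, so it does not set the 3 apart.

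**Figure D1:**
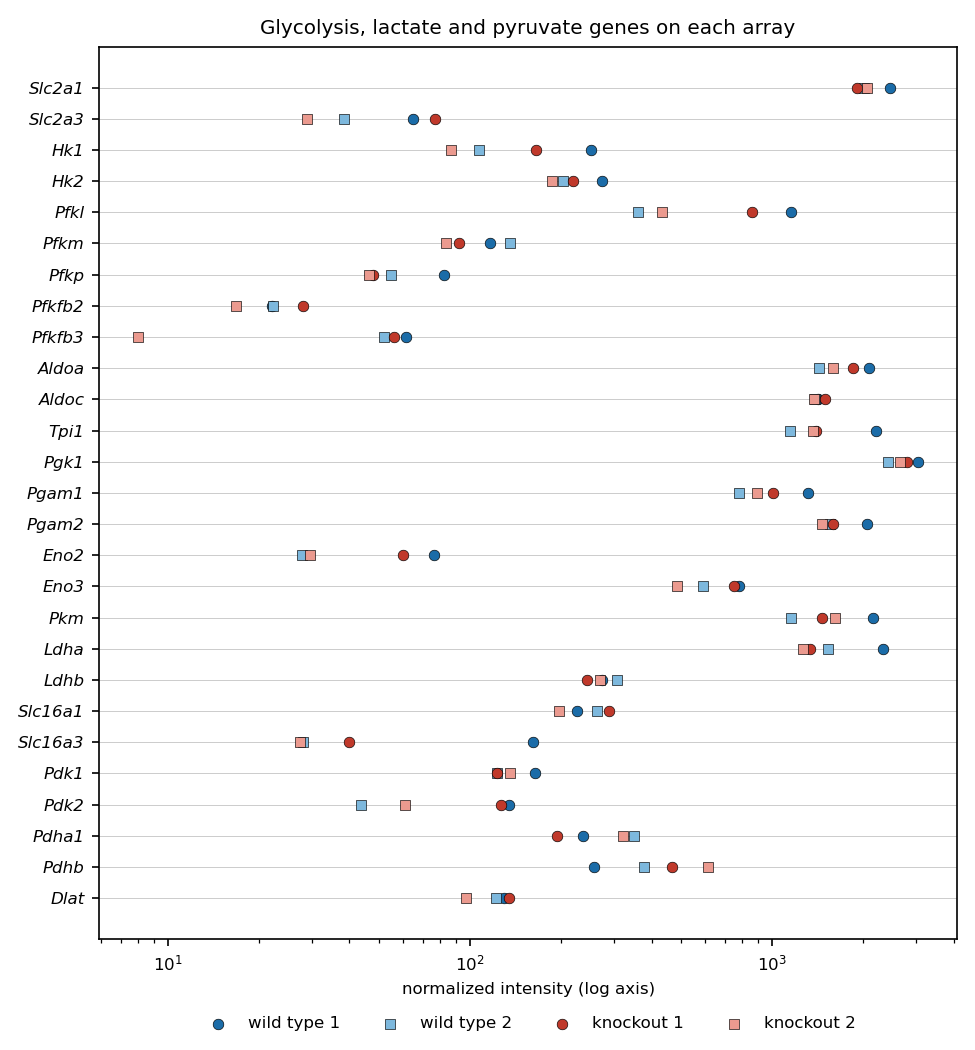
Normalized intensity (log axis) of each of the 27 genes on the 4 arrays, in pathway order from glucose entry to pyruvate dehydrogenase; each point is 1 array and wild type is blue, knockout red. In most rows the blue and red points interleave, and the wild-type array 1 point lies furthest right for 18 genes.

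Glucose enters cells through facilitative transporters. Slc2a1, which encodes GLUT1, the transporter of barrier tissues and erythrocytes, measured 2455 and 2016 in wild type and 1915 and 2067 in knockout. The groups overlapped, and the change was -0.16 (SE 0.21), with -0.36 in number 1 and 0.035 in number 2. Slc2a3, for GLUT3 of neurons, measured 64.8 and 38.3 against 77.1 and 29.0. Both number 1 arrays were the higher ones in their group, and the change was -0.033 (SE 0.40).

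The hexokinases trap glucose by phosphorylating it. Hk1, the form bound to mitochondria in most tissues, measured 253 and 108 in wild type and 166 and 86.6 in knockout. Its change of -0.42 (SE 0.43) was smaller than the gap of 1.12 between the wild-type arrays, and a dimmer probe set of Hk1 gave 0.082. Hk2, the inducible form, measured 274 and 204 against 219 and 188, a change of -0.20 (SE 0.30) with groups that overlapped.

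Phosphofructokinase makes the committed step of the chain. On the probe sets used, its muscle and platelet forms were the lower ones in knockout without overlap. Pfkm, the muscle form, measured 117 and 136 in wild type and 92.5 and 83.4 in knockout. Its mean was 127 ± 13.8 against 87.9 ± 6.45 (SD, n = 2), a change of -0.45 (SE 0.29), and it was lower in both numbers, by -0.29 and -0.62. Pfkp, the platelet form, measured 82.3 and 55.0 against 48.0 and 46.3. Its change was -0.40 (SE 0.31), and the gap between its wild-type arrays, 0.47, was larger. The further probe set of Pfkp above the filter gave -0.19 with overlapping groups, at 18.5 and 13.6 against 21.8 and 4.75. Pfkl, the liver form, went with the array number and not with the genotype, at 1158 and 360 in wild type and 857 and 433 in knockout. The fitted change of Pfkl was -0.086 (SE 0.50), but the number 1 array exceeded the number 2 array by 1.64 in wild type and by 0.96 in knockout.

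The bifunctional enzymes that set the level of the sugar phosphate activating phosphofructokinase were dim. Pfkfb3, the form induced in proliferating and hypoxic cells, measured 61.6 and 52.1 in wild type and 56.2 and 7.99 in knockout. Knockout array 2 alone was low, so the change of -0.80 (SE 0.47) was -0.10 in number 1 and -1.51 in number 2. Without knockout array 1, which leaves knockout array 2 alone in its group, it was -1.48. The further probe set of Pfkfb3 above the filter gave 0.37, in the opposite direction. On knockout array 2 the 3' to 5' ratio of the Gapdh control probe sets was 1.05, against 0.84 to 0.91 on the others, while that of the actin control probe sets was 1.58, within the 1.54 to 1.77 of the others. Summed intensities of the 9 neural retina markers tested were 2894 and 3190 in wild type, 2758 on knockout array 1 and 1603 on knockout array 2, and the part of either in the Pfkfb3 value was not tested. In bulk RNA, fewer cells of a type and less RNA per cell cannot be told apart. Pfkfb2, the heart form, measured 22.2 and 22.3 against 28.2 and 16.9.

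The middle enzymes of the chain differed little between groups and more between the wild-type arrays. Aldoa, the aldolase of muscle and most tissues, measured 2102 and 1431 in wild type and 1856 and 1595 in knockout. Aldoc, the brain aldolase, measured 1427 and 1390 against 1504 and 1376. Their changes were -0.011 (SE 0.25) and 0.030 (SE 0.22). Tpi1, triose phosphate isomerase, measured 2209 and 1153 in wild type and 1403 and 1370 in knockout, with wild-type array 1 alone high. Its change of -0.20 thus joined -0.65 in number 1 with 0.25 in number 2. Pgk1, which makes the first ATP of the chain, measured 3050 and 2425 against 2811 and 2655, with a change of 0.0063 (SE 0.21). The Gapdh control probe sets of the 3', middle and 5' regions had changes of 0.071, -0.100 and -0.13, and all 3 had overlapping groups.

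Pgam2 and Eno3 are the muscle forms of phosphoglycerate mutase and enolase, and their changes were smaller than the median of the muscle markers. Pgam2 measured 2067 and 1554 in wild type and 1595 and 1462 in knockout, a change of -0.23 (SE 0.23) with overlapping groups. Eno3 measured 780 and 591 against 750 and 487, a change of -0.16 (SE 0.30). On the same arrays the summed intensity of the 14 striated muscle markers tested, of 16 listed, was 3140 and 1572 in wild type and 172 and 205 in knockout. All 14 were lower without overlap, with a median of -2.24, and limma called 3 of them, Actc1, Myl1 and Acta1. The cardiac actin Actc1 measured 443 and 218 against 7.84 and 2.18. Pgam1, the form of most other tissues, measured 1320 and 777 against 1014 and 891, and Eno2, the neuronal enolase, 76.3 and 27.8 against 60.2 and 29.5. Both had overlapping groups.

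Pyruvate kinase closes the chain and lactate dehydrogenase follows it. Pkm measured 2163 and 1162 in wild type, and the knockout arrays, at 1469 and 1618, lay between them. The change was -0.041 (SE 0.30), made of -0.55 in number 1 and 0.47 in number 2. Ldha, the subunit that favours lactate, measured 2343 and 1536 in wild type and 1338 and 1266 in knockout. Both knockout arrays were below both wild-type arrays, with means of 1940 ± 571 and 1302 ± 50.6 (SD, n = 2). The change was -0.54 (SE 0.26, limma adjusted p = 1), with -0.80 in number 1 and -0.28 in number 2. Without wild-type array 1 the change of Ldha was -0.24. Ldhb, the subunit of oxidative tissues, measured 275 and 308 against 244 and 270, a change of -0.17 (SE 0.28) with -0.16 and -0.18 in the numbers. Its 3 further probe sets gave -0.095, 0.12 and -0.12.

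Lactate leaves and enters cells with protons through monocarboxylate transporters. Slc16a3, for MCT4 of strongly glycolytic cells, measured 162 and 28.1 in wild type and 39.9 and 27.4 in knockout. The lowest change among the 27, -0.84 (SE 0.55), rested on wild-type array 1, and without that array it was 0.15. Slc16a1, for the widespread MCT1, measured 227 and 265 against 288 and 198, a change of -0.034 (SE 0.31).

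Pdhb encodes the beta subunit of the first enzyme of the pyruvate dehydrogenase complex. It alone of the 27 genes was higher in knockout in both numbers, as were 26.1% of all genes. It measured 259 and 378 in wild type and 467 and 614 in knockout. Means were 318 ± 83.9 and 541 ± 104 (SD, n = 2), and the change was 0.75 (SE 0.31, limma adjusted p = 1). The changes within the numbers were 0.81 and 0.68, each above the gaps of 0.52 and 0.38 between arrays of a group. A dimmer probe set of Pdhb gave 0.36 with overlapping groups, at 12.7 and 15.9 against 15.3 and 32.2. Its partner subunit Pdha1 measured 238 and 350 against 194 and 323, a change of -0.19 (SE 0.34). Dlat, the acetyl-transferring core of the complex, measured 130 and 122 against 135 and 97.3, a change of -0.12 (SE 0.31). Dimmer probe sets above the filter gave 0.082 for Pdha1, and -0.33 and -0.20 for Dlat. The last was lower without overlap, at 67.3 and 85.1 against 65.0 and 63.2.

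The kinases that switch the complex off had overlapping groups on the probe sets used. Pdk1, the form induced in hypoxia, measured 164 and 123 in wild type and 123 and 136 in knockout, a change of -0.12 (SE 0.30). Its 2 dimmer probe sets above the filter gave -0.69 with overlapping groups and -0.46 without overlap. The latter read 171 and 115 in wild type and 97.9 and 97.9 in knockout. Pdk2, the widespread form, again went with the number, at 135 and 43.7 against 127 and 61.1. Among the members described here, 24 further probe sets of 14 genes lay above the filter, and 14 of these probe sets had the direction of the probe set used.

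**Figure D2:**
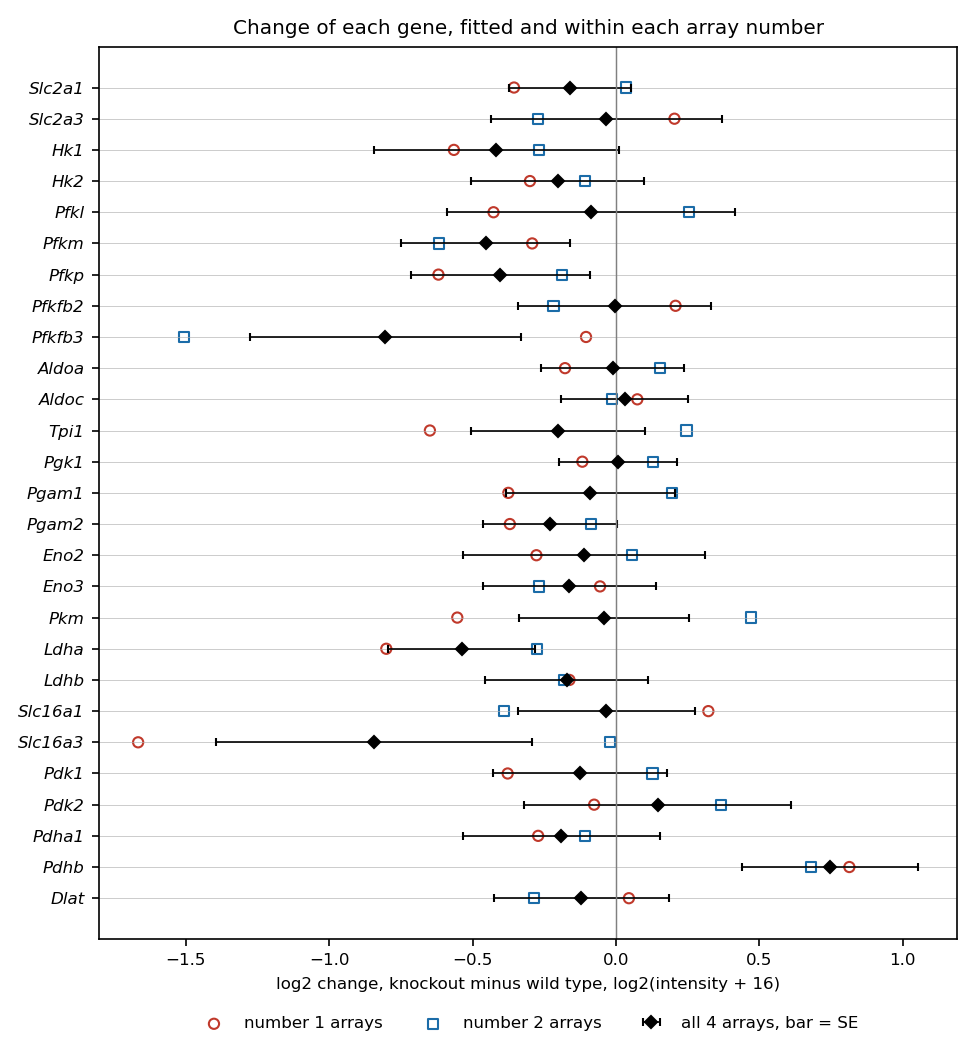
Change of each gene in log2(intensity + 16), knockout less wild type: black diamonds are the fit over 4 arrays with the SE as bar, circles the difference of the number 1 arrays and squares that of the number 2 arrays. The circle and square lie on opposite sides of 0 for 15 of the 27 genes, and Pdhb lies furthest to the right at 0.75.

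Isoforms of a step were compared by the log2 ratio of their probe sets within each array, on the same log2(intensity + 16) scale. The differences moved with the scaling: Slc2a1 to Slc2a3 went from -0.13 to -0.43 and Eno2 to Eno3 from 0.052 to 0.37 with median centring. Of 14 pairs listed, 12 had values, and with 2 arrays a group the exact two-sided permutation test cannot give a p below 0.333. All adjusted p over the 12 pairs were 1. Only the ratio of Pfkfb2 to Pfkfb3 had groups that did not overlap, at -1.02 and -0.83 in wild type and -0.71 and 0.46 in knockout (difference 0.80, exact p = 0.333). The difference was 0.31 in number 1 and 1.29 in number 2, where Pfkfb3 was low on the knockout array. The ratio of Ldha to Ldhb was 3.02 and 2.26 in wild type and 2.38 and 2.16 in knockout, a difference of -0.37, and was highest on wild-type array 1. The ratio of Hk1 to Hk2 was -0.11 and -0.83 against -0.37 and -0.99, so the number 1 arrays had the higher ratio in both groups. The ratio of Pdk1 to Pdk2 was 0.26 and 1.22 against -0.043 and 0.98, with the number 2 arrays higher in both groups.

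The 27 genes also differed between single arrays. For 18 of them the highest value lay on wild-type array 1, which is 66.7%, while that array held the highest value of 22.7% of all genes tested. With median centring in place of quantile normalization these were 20 genes and 47.5% of all genes, so the contrast depends on the scaling. These 18 include Hk1, Hk2, Pfkl, Aldoa, Tpi1, Pgk1, Pgam1, Pkm, Ldha, Slc2a1 and Slc16a3, which cover most steps of the chain. The lowest value lay on knockout array 2 for 14 genes, or 51.9%, against 33.5% of all genes. The number 1 array exceeded the number 2 array for 21 genes in wild type and for 21 in knockout, against 48.3% and 52.1% of all genes. The median difference was 0.40 in wild type and 0.18 in knockout, and -0.020 and 0.028 for all genes. Leaving out wild-type array 1 turned the median change of the 27 from -0.12 to 0.049, and 12 genes in place of 23 were then lower. Leaving out knockout array 2 left 14 lower genes and a median of -0.0033.

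**Figure D3:**
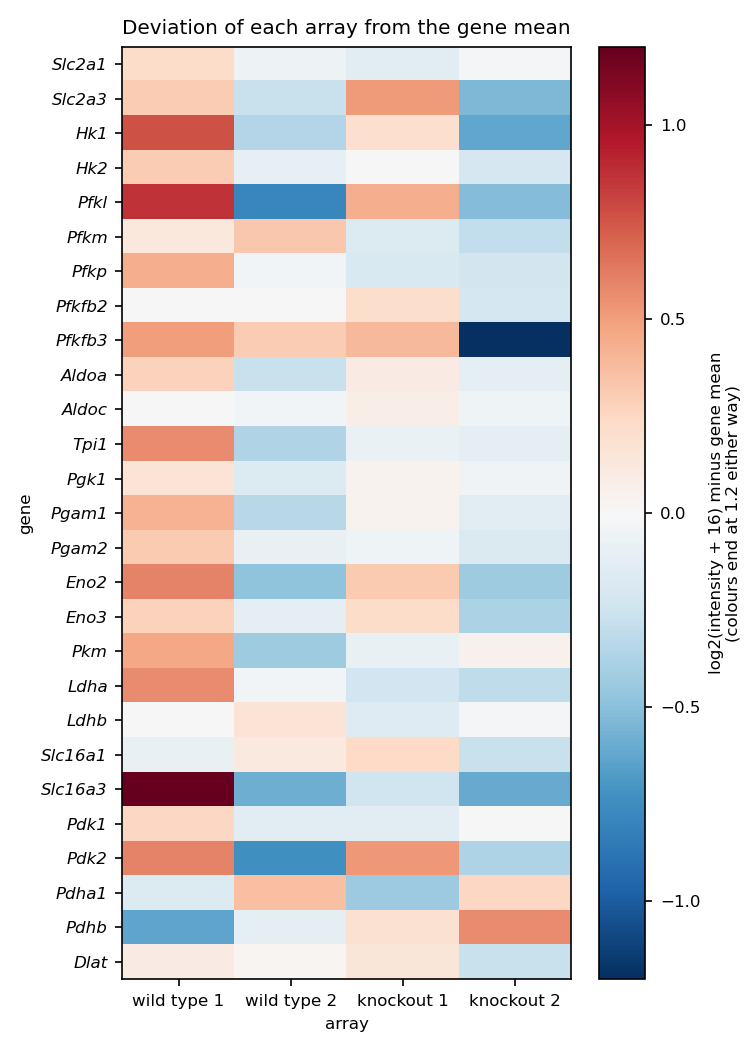
Deviation of each array from the mean of the gene over the 4 arrays, on the log2(intensity + 16) scale, for the 27 genes; red is above and blue below the gene mean. The column of wild-type array 1 is the highest in 18 rows and that of knockout array 2 the lowest in 14.

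Other gene groups were set beside this pattern. Among 16 regulators and targets of the hypoxia response, the highest value lay on wild-type array 1 for 11, or 68.8%. P4ha1, a collagen prolyl hydroxylase and hypoxia target, measured 593 and 381 in wild type and 247 and 269 in knockout (change -0.85, SE 0.31, limma adjusted p = 1), and Egln3, an oxygen sensor, 44.4 and 21.9 against 25.8 and 3.01. Egln2, a related sensor, was higher at 238 and 217 in knockout against 174 and 110. The striated muscle markers had their highest value on wild-type array 1 for 13 of 14 genes. The same held for 3 of 14 further glycolysis and lactate genes, 3 of 11 pyruvate genes and 2 of 6 pentose phosphate genes. The part of the muscle signal, of Xist, of the 18S signal or of the array number in the high values of wild-type array 1 was not tested.

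**Figure D4:**
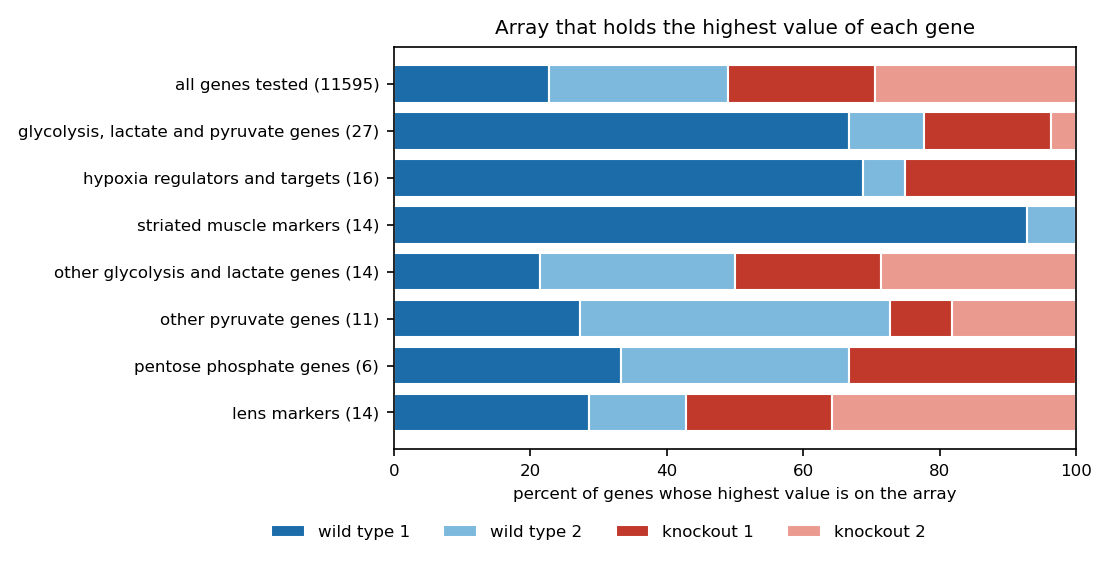
Percent of genes whose highest value lies on each of the 4 arrays, by gene group, with the number of genes tested in parentheses. Wild-type array 1 (dark blue) holds 66.7% of the glycolysis, lactate and pyruvate genes, 68.8% of the hypoxia genes and 22.7% of all genes tested.

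The remaining pathway lists held no called gene in either direction. Their median changes were -0.11 for 14 further glycolysis and lactate genes, -0.13 for 11 pyruvate genes, -0.16 for 6 pentose phosphate genes and -0.088 for the 16 hypoxia genes. Hkdc1, a hexokinase relative, measured 99.96 and 91.2 in wild type and 75.4 and 7.17 in knockout (change -1.28, SE 0.54, limma adjusted p = 1), again with the lowest value on knockout array 2. Pgm1, which links glycogen to glycolysis, measured 265 and 214 against 192 and 185. Slc2a12, a further glucose transporter, measured 16.3 and 29.6 against 20.3 and 1.09. Pcx, which carboxylates pyruvate, measured 65.0 and 50.6 against 62.2 and 23.4, Mpc1, of the mitochondrial pyruvate carrier, 292 and 341 against 276 and 273, and Pdpr, of the phosphatase that reactivates the complex, 105 and 84.8 against 80.6 and 84.0. Of the pentose phosphate genes, Taldo1 measured 487 and 453 against 371 and 390, Rpe 86.1 and 139 against 96.4 and 73.6, and Pgls 547 and 378 against 550 and 507.

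Markers of other cell types gave the following summed intensities. The 8 fibroblast and pericyte markers summed to 1992 and 2334 in wild type and 1505 and 1168 in knockout. Rgs5, at 516 to 1090, gave much of these sums, and the median change of the 8 was -1.31, with 6 lower without overlap and 0 called by limma, with 5 at an unadjusted p under 0.05. The 3 with the lowest p had changes of -1.84 (Col1a1), -1.73 (Col3a1) and -1.30 (Lum). The 4 erythroid markers summed to 90.1 and 155 against 131 and 502, and the 8 endothelial markers to 660.1 and 530 against 549 and 764. The 8 macrophage markers summed to 713 and 668 against 660.0 and 825, and the 5 pigment cell markers to 568 and 917 against 804 and 1078. None of these sums had its highest value on wild-type array 1, unlike that of the muscle markers. Their part in the values of the 27 genes was not tested.

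Promoters of the 5 genes whose groups did not overlap are shown, because heat shock factors bind inverted repeats of GAA and hypoxia-inducible factors bind a short core. Each run is the 250 bases before a RefSeq start site (GRCm38.p6), written 5′ to 3′ on the strand of the gene, with capitals at every match to ACGTG or GCGTG or their complements, CACGT and CACGC. Where a gene has several start sites in the table, that with the most matches is shown, counting heat shock repeats too. For Pfkm other start sites had as many, and the one with the lowest coordinate is shown. Ldha lies at chr7:46845554-46845803 (plus strand), Pfkm at chr15:98092339-98092588 (plus strand), Pfkp at chr13:6648772-6649021 (minus strand), Ldhb at chr6:142507958-142508207 (minus strand) and Pdhb at chr14:8172993-8173242 (minus strand).
Ldha: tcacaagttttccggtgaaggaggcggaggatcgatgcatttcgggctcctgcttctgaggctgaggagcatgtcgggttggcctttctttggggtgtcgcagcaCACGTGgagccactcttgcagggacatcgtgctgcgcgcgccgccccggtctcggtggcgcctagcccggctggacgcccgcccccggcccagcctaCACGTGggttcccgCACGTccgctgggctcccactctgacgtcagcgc
Pfkm: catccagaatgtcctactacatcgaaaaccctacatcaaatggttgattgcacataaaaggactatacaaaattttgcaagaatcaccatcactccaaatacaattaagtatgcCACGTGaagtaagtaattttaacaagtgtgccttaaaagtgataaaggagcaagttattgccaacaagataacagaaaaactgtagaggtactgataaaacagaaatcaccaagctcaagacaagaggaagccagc
Pfkp: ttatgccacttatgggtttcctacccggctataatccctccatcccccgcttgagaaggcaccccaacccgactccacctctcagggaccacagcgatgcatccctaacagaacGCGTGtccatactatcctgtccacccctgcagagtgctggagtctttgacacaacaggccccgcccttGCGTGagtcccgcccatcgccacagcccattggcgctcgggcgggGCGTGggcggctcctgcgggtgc
Ldhb: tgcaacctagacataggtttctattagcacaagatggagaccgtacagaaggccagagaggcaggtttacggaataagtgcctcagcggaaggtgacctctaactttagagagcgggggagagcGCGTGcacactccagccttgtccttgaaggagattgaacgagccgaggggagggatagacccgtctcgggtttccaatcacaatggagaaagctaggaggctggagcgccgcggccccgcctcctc
Pdhb: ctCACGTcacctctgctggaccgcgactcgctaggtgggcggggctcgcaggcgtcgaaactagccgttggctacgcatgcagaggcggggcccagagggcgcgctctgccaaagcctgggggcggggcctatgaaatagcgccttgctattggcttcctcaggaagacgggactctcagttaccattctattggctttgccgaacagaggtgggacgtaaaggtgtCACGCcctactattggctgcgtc

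The Ldha promoter held 5 matches to the hypoxia core, counted on both strands, so that each CACGTG counts as 2. Pfkp held 3, Pfkm and Pdhb 2 each and Ldhb 1. Thus the higher gene and the lower genes all held the core. Of the 29 listed genes with a promoter in the table, 24 held it at some start site, or 82.8%, against 41.5% of all 27025 genes of the table and 62.3% of the 9405 of them that were tested on the arrays. By promoter, 34 of 45 held it, or 75.6%, against 38.6% of all. The core contains CG, and base composition was not matched. Heat shock repeats were searched as GAANNTTC and TTCNNGAA, each of which is its own complement. The former was in 1 of the 29 genes, or 3.45%, against 7.73% of all genes, and the latter in 4, or 13.8%, against 8.11%. These were Pfkl, Pfkm, Pfkfb2 and Eno2, and Pfkl held both forms. Of the 5 genes without overlap only Pfkm had one, at another start site, with 2 matches on chromosome 15, shown in capitals:
Pfkm, chr15:98111896-98111963: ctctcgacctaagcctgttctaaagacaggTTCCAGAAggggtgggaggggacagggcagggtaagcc
Pfkm, chr15:98111986-98112053: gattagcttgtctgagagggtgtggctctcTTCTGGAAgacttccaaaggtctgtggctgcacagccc

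A match describes letters in this window and is neither a binding site nor a cause of a change.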

How the data were processed

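The authors deposited linear intensity values, with 1 value for each of 45101 probe sets on each of 4 arrays. Per the labels' protocols, RNA came from dissected lenses and was labelled with biotin after oligo-T7 priming. No source used here names the summarising software. Medians of the deposited values differed between arrays.

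The arrays were brought to 1 distribution by quantile normalization (limma 3.58.1, R 4.3.3), 16 was added and log2 taken, and 64 control probe sets were then dropped. Symbols were updated through Entrez IDs. The brightest probe set stood for its gene. Genes entered the test when their mean on the log2 scale was at least 4.86, the median of the remaining probe sets. limma's moderated test used an intensity trend, with Benjamini-Hochberg adjustment over all 11595 genes and a threshold of 0.05. The procedure was tested on simulated data.

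Members and lists were chosen with earlier results of these data known. The rule for named genes took all members and, from each other list, the 3 tested genes with the lowest p; lens markers served only to check the tissue, and Cryaa, Mip, Bfsp1, Bfsp2, Rgs5 and the sex-linked genes were chosen after their values were seen. Cell type lists are given mainly by their sums. Alternatives were other scalings, filters, offsets, variance models and probe set summaries, the array number as a block, and leaving out each array. Comparisons within a number, counts by highest array under other scalings and promoter shares among tested genes were added after seeing the data. The number of arrays limits the precision.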

Additional observations from a re-analysis of the deposited data

How the results depend on the processing

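Over 14 settings, 9 genes (Hk2, Ldha, Ldhb, Pdhb, Pfkfb3, Pfkm, Pfkp, Pgam2 and Slc2a1) kept their direction and 18 turned in at least 1. Genes called, 4 in the main setting, numbered 0 on the deposited scale, 12 with median centring, 7 with trimmed-mean scaling, 0 without the filter, 0 with the mean of probe sets, and 4 to 289 when an array was left out (289 without knockout array 1, 61 without knockout array 2, 8 without wild-type array 2 and 4 without wild-type array 1). The lone array of a group is then assumed to vary like the other group's arrays. The labels do not say what the array number marks. With it as a replicate block, 200 of the 11595 genes tested were called, including Ldha (limma adjusted p = 0.0287) and Pdhb (limma adjusted p = 0.0121). These were the only 2 of the 27 members called with that block. Without knockout array 1 the change of Pfkfb3 was -1.48. The median change of the members was -0.71 on the deposited scale (all genes -0.46), -0.54 with median centring (all genes -0.28), -0.28 within number 1, -0.087 within number 2 and -0.36 to 0.049 with an array left out, when 12 to 24 members were lower.

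Signs turned on the deposited scale for Aldoc (-0.56), Pdk2 (-0.29) and Pgk1 (-0.51), and with median centring for Aldoc (-0.39), Pdk2 (-0.11), Pfkfb2 (0.0020) and Pgk1 (-0.34). They turned with trimmed-mean scaling for Aldoa (0.030), Pfkfb2 (0.097) and Slc2a3 (0.039), and with offset 64 for Pfkfb2 (0.0017). With the mean of probe sets they turned for Aldoa (0.042), Pfkl (0.094), Pgk1 (-0.12), Slc2a3 (0.020) and Hk1 to Hk2 (0.036), the last being an isoform ratio. With 1 array left out, the ranges that crossed 0 were those of Aldoa (-0.29 to 0.27), Aldoc (-0.036 to 0.091), Dlat (-0.32 to 0.17), Eno2 (-0.66 to 0.40), Eno3 (-0.47 to 0.14), Hk1 (-0.97 to 0.14), Pdha1 (-0.54 to 0.16), Pdk1 (-0.31 to 0.061) and Pdk2 (-0.52 to 0.79). The others were Pfkfb2 (-0.20 to 0.23), Pfkl (-0.90 to 0.73), Pgam1 (-0.46 to 0.29), Pgk1 (-0.15 to 0.17), Pkm (-0.49 to 0.42), Slc16a1 (-0.29 to 0.22), Slc16a3 (-1.86 to 0.15), Slc2a3 (-0.52 to 0.52) and Tpi1 (-0.66 to 0.28). Among isoform ratios they were Aldoa to Aldoc (-0.30 to 0.22), Eno2 to Eno3 (-0.30 to 0.37), Hk1 to Hk2 (-0.57 to 0.15), Ldha to Ldhb (-0.75 to 0.012), Pdk1 to Pdk2 (-0.78 to 0.24) and Pfkl to Pfkm (-0.54 to 1.28), and Pfkl to Pfkp (-0.25 to 0.89), Pfkm to Pfkp (-0.39 to 0.29), Pgam1 to Pgam2 (-0.025 to 0.31), Slc16a1 to Slc16a3 (-0.28 to 1.93) and Slc2a1 to Slc2a3 (-0.73 to 0.41). The cause was not tested.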
